A study of Homo sapiens with 6 samples.

Results

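E2F7 and E2F8 are the atypical repressors of the E2F family of transcription factors, and their transcripts moved in opposite directions between U-2 OS cells carrying S22A-progerin and U-2 OS cells carrying wt-progerin. They are 2 of 14884 named genes in the data, and each was read by 1 of 53617 probe sets. The pair was selected on the measured difference between the groups, which ran opposite ways in the 2 genes. The values of that difference are therefore given as a description, with no test.

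U-2 OS is a human osteosarcoma line. Progerin is the truncated, permanently farnesylated lamin A of Hutchinson-Gilford progeria. Both groups were infected with a retroviral vector, selected with puromycin at 5 µg/ml for 3 days and collected 4 days after infection. On 3 arrays the cells expressed S22A-progerin, in which alanine replaces a serine whose phosphorylation accompanies disassembly of the lamina at mitosis. On the other 3 arrays they expressed wt-progerin, without that change. All cells carried a form of progerin. Cells without progerin were not analysed here, and it is therefore not known which group is closer to the parent line. The labels name neither the promoter of the vector nor whether clones were picked, and the series calls the replicates of each group independent.

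E2F factors control the genes of the G1/S transition and of DNA synthesis. E2F1, E2F2 and E2F3 are the activators, which bind DNA together with a DP partner and are held in check by Rb. E2F7 and E2F8 carry a pair of DNA-binding domains each, need no DP partner, do not bind Rb, and repress E2F target genes late in S phase, E2F1 among them. Both are E2F targets themselves, and in human cells E2F7 is also induced directly by p53.

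The promoters of the numbered E2F genes show which cell-cycle motifs stand just upstream of each start. Of E2F7 and E2F8, 1 matched the RefSeq promoter table (GRCh38.p14), which was E2F7. E2F1, E2F2 and E2F3 also matched and are printed for comparison with it. Each line gives the 250 bases before the annotated start, 5′ to 3′ on the gene's own strand, with every motif match in capitals. The motifs searched on both strands were the E2F site TTTNNCGC, the cell cycle homology region (CHR) TTTGAA, the CCAAT box CCAAT and the p53 half-site. Matches of the E2F site may overlap one another, as they do in E2F1 and E2F2.
E2F7, chr12:77065570-77065819, minus strand: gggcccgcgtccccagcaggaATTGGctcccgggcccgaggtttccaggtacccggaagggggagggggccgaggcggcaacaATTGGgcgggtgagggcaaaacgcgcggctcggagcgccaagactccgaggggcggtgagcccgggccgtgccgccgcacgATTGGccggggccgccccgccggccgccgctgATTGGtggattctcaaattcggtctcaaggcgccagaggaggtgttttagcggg
E2F1, chr20:33686386-33686635, minus strand: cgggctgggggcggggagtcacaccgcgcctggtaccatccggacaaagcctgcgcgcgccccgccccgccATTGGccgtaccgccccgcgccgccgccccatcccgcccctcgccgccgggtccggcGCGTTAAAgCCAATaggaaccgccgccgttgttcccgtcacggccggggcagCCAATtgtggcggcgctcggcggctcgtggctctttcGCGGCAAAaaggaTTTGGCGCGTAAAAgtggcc
E2F2, chr1:23531234-23531483, minus strand: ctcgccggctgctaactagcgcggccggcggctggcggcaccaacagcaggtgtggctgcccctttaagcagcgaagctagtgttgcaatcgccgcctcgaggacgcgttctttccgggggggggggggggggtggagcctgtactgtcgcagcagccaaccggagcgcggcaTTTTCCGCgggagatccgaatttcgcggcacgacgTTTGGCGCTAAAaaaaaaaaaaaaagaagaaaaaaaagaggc
E2F3, chr6:20401629-20401878, plus strand: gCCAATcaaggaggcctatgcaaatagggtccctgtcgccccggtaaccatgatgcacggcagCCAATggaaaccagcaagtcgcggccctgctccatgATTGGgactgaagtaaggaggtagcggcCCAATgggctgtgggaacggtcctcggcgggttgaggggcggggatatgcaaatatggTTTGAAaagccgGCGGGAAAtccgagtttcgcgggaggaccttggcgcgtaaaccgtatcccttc

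The window before E2F7 held 4 CCAAT boxes, all on the reverse strand as ATTGG, and no match to the other 3 motifs. CCAAT boxes are the binding sites of NF-Y and are common upstream of cell-cycle genes. Of 35114 promoters in the table, 32.0% held at least 1 CCAAT box in this window, and 0.874% held 4 or more. E2F1 had 4 matches to the E2F site, E2F2 had 3 and E2F3 had 1, where 5.92% of all promoters held any. E2F3 also had the 1 CHR match, a motif that 13.3% of all promoters held, and 4 CCAAT boxes, against 3 in E2F1. The p53 half-site, held by 5.57% of all promoters, had no match in the 4 windows. These matches are letters in a short window and do not show that a factor binds there or is absent from the rest of the gene.

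The arrays differed chiefly by group. The first principal component over the named genes separated the groups with 69.1% of the variance, and the second, with 11.1%, set S22A-progerin replicate 3 (-15.5) apart from replicates 1 and 2 of its group (6.51 and 9.29). Array medians were 6.05 to 6.09 in S22A-progerin and 6.04 in each wt-progerin array, on the log2 scale of the deposited values. LMNA, which encodes lamin A and progerin, averaged 8.29 ± 0.024 in S22A-progerin and 8.14 ± 0.036 in wt-progerin (SD, n = 3 each) and did not pass the test (limma adjusted p = 0.0796). A single value per array cannot tell the cells' own LMNA transcript from that of the vector, and protein was not measured. Among the fixed cell type markers, 2 of the 5 measured osteoblast or osteosarcoma genes were called, where 25.4% of all genes were. SPP1, which encodes osteopontin, rose by 1.18 (limma adjusted p = 9.83e-05), and RUNX2, the osteoblast transcription factor, fell by 0.74 (limma adjusted p = 0.000960). The mesenchymal gene VIM averaged 10.83 in S22A-progerin and 10.89 in wt-progerin, and IBSP was low, at 3.88 in S22A-progerin and 3.86 in wt-progerin. Neither passed, nor did SP7 (difference -0.00222). Of 3 epithelial genes, KRT18 rose by 0.51 (limma adjusted p = 0.000610), while EPCAM (-0.28) and KRT8 (0.06) did not pass. Leukocyte TYROBP (0.17) and endothelial PECAM1 (0.01) did not pass either. The part of these markers in the E2F7 and E2F8 differences was not tested. Averaged over the 6 arrays, KRT18 (11.68) lay above VIM (10.86), RUNX2 (8.40), SPP1 (7.77), SP7 (6.24) and IBSP (3.87). KRT8 (7.60), EPCAM (7.01), TYROBP (6.80) and PECAM1 (5.23) lay between RUNX2 and IBSP. Only 10 of the 20 markers were measured, COL1A1, COL1A2, ALPL and BGLAP not among them. By level they did not set the osteoblast genes above the others, but levels of different probe sets are not directly comparable. The ranking therefore decides no cell type, and the osteoblast identity rests on the name of the line.

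E2F7 was higher in S22A-progerin. Its log2 expression was 10.99, 10.94 and 11.11 in the S22A-progerin arrays, against 10.78, 10.76 and 10.78 in the wt-progerin arrays. The groups did not overlap, but the gap between the lowest S22A-progerin array and the highest wt-progerin array was 0.161, about as wide as the spread of the S22A-progerin arrays themselves (0.163). The means were 11.01 ± 0.084 and 10.77 ± 0.015 (SD, n = 3 each), a difference of 0.24 on the log2 scale, or 1.18-fold. Of the 14884 genes, 1897 had a larger positive difference. Replicate 3 of S22A-progerin, the array that stood apart on the second component, held the highest E2F7 value, and without it the difference was 0.19.

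E2F8 was lower in S22A-progerin, and by more. Its log2 expression was 8.68, 8.48 and 8.55 in the S22A-progerin arrays, against 9.34, 9.40 and 9.37 in the wt-progerin arrays. The groups were parted by a gap of 0.66, where the S22A-progerin arrays spanned 0.195. The means were 8.57 ± 0.099 and 9.37 ± 0.032 (SD, n = 3 each), a difference of -0.80, or 1.74-fold lower. Of all genes, 176 had a larger negative difference. In both genes the wt-progerin arrays lay closer together than the S22A-progerin arrays.

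The balance between the 2 repressors shifted in every S22A-progerin array. The log2 ratio of E2F7 to E2F8, set to an average of 0 in wt-progerin, was 0.91, 1.06 and 1.15 in the S22A-progerin arrays. In the wt-progerin arrays it was 0.04, -0.05 and 0.01. The ratio was thus 2.05-fold higher in S22A-progerin, and most of this came from E2F8. This too follows from how the pair was chosen and is a description. In 42.1% of all named genes the groups did not overlap, with S22A-progerin higher in 18.5% and lower in 23.6%.

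**Figure D1:**
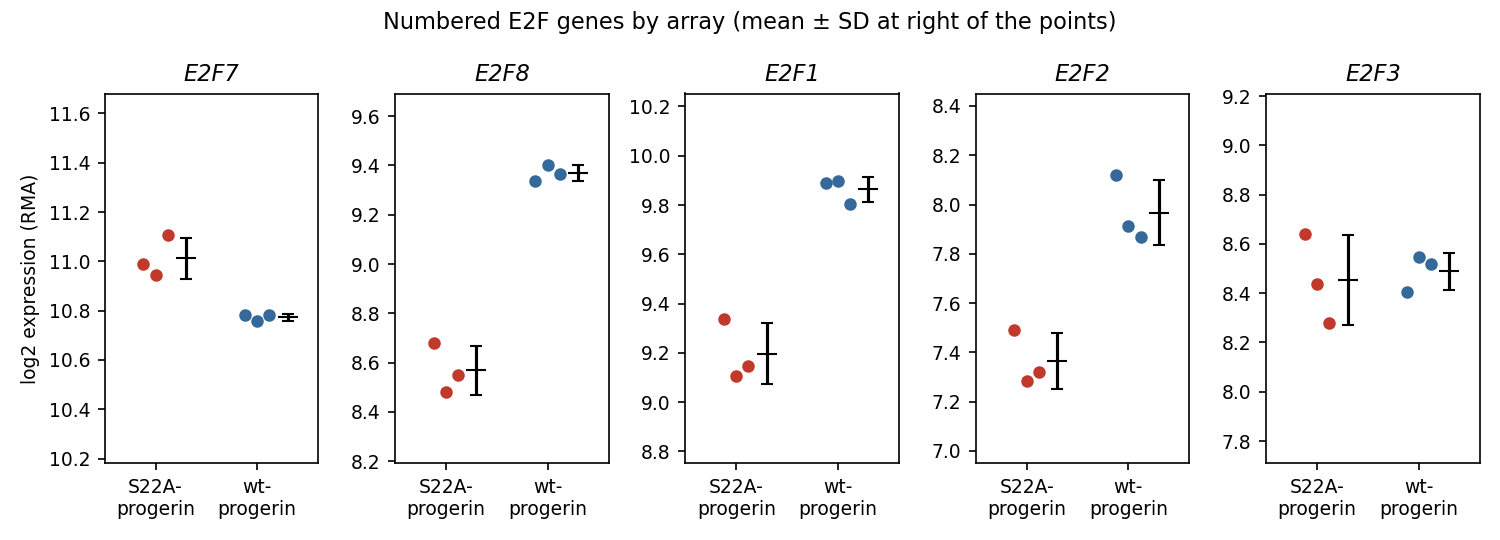
Log2 expression of E2F7, E2F8, E2F1, E2F2 and E2F3 in each array, S22A-progerin (red) left of wt-progerin (blue), with the mean ± SD of 3 arrays beside the points. All panels span the same height of 1.5 log2 units but start at different levels; E2F7 is higher in S22A-progerin, E2F8, E2F1 and E2F2 are lower, and the groups overlap in E2F3.

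The activators E2F1 and E2F2 fell, as E2F8 was lower, and E2F3 did not pass. In the limma fit over all named genes, 2 of the 3 other numbered E2F genes fell and none rose, where 25.4% of all genes were called, 10.8% higher and 14.6% lower. E2F1, which E2F7 and E2F8 are known to repress, stood at 9.34, 9.11 and 9.15 in S22A-progerin and at 9.89, 9.90 and 9.81 in wt-progerin. Every S22A-progerin array lay below every wt-progerin array, and the difference was -0.67 (SE 0.075, limma adjusted p = 0.000876). E2F2 had 7.49, 7.28 and 7.32 in S22A-progerin, against 8.12, 7.91 and 7.87 in wt-progerin, a difference of -0.60 (SE 0.089, limma adjusted p = 0.00291). In E2F3 the groups overlapped, with 8.64, 8.44 and 8.28 in S22A-progerin and 8.40, 8.55 and 8.52 in wt-progerin (difference -0.04, 95% interval -0.27 to 0.19, limma adjusted p = 0.825). E2F4, E2F5 and E2F6 were not analysed here. Both calls among the E2F genes held with each array left out in turn and in every other setting tried. These are bulk arrays, so a smaller number of cycling cells and less transcript per cell cannot be told apart in any of these values.

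The Rb family and the subunits of the DREAM complex, which silence E2F and G2/M genes in resting cells, mostly fell, as did the MYB and FOXM1 partners of its MuvB core. Of 13 measured genes in this list, 10 fell, 1 rose and 2 did not pass, where 14.6% of all genes fell and 10.8% rose. The median difference was -0.30, against close to 0 over all genes. RBL1, which encodes the Rb relative p107 and is itself an E2F target, fell most, by 0.66 on the log2 scale (SE 0.060, limma adjusted p = 0.000357). MYBL2, the B-MYB subunit that turns MuvB into an activator, fell by 0.55 (SE 0.049) and its relative MYBL1 fell by 0.53. FOXM1, which joins MuvB to drive G2/M genes, fell by 0.46 (SE 0.054). The rise was in LIN37, a MuvB subunit required for repression by DREAM. LIN37 read 10.00, 9.91 and 10.01 in S22A-progerin, against 9.69, 9.70 and 9.65 in wt-progerin, with no overlap (difference 0.29, SE 0.055, limma adjusted p = 0.00804). The DP partner genes TFDP1 (-0.18) and TFDP2 (-0.06) were the members that did not pass. Of the members that fell, RB1 differed by -0.25 and RBL2, which encodes p130, by -0.49.

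Genes whose products act on the E2F7 and E2F8 proteins also leaned down. Of 7 measured, 4 fell (57.1%, against 14.6% of all genes), none rose and 3 did not pass, with a median of -0.27. CCNF encodes cyclin F, the substrate receptor of the ubiquitin ligase that degrades E2F7 and E2F8 in G2. It stood at 9.19, 9.09 and 9.28 in S22A-progerin, against 9.95, 10.00 and 9.94 in wt-progerin (difference -0.78, SE 0.064, limma adjusted p = 0.000248). FBXO5, the EMI1 inhibitor of the anaphase-promoting complex, fell by 0.87 on the log2 scale (SE 0.104). FZR1 encodes CDH1, through which that complex degrades both repressors, and it fell by 0.39 (SE 0.075). CHEK1, the checkpoint kinase that acts on both repressors after DNA damage, fell by 0.27 (limma adjusted p = 0.0119), though not without wt-progerin replicate 3 (adjusted p = 0.0524). ANAPC2 (-0.20), SKP1 (-0.11) and CUL1 (-0.03), core parts of ligases of these kinds, did not pass. Transcript levels say nothing of protein levels, which were not measured.

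Classic E2F targets of the G1/S transition and of DNA replication shifted the same way as E2F8. Of 31 measured, 25 fell (80.6%, against 14.6% of all genes), none rose and 6 did not pass, with a median of -0.39. E2F7 and E2F8 are known to repress many of them. CDC7, the kinase that fires replication origins, fell by 0.86 on the log2 scale (SE 0.077, limma adjusted p = 0.000346). CDC45 and GINS1, parts of the replicative helicase, fell by 0.69 (SE 0.052) and 0.55 (SE 0.054), and GINS2 fell by 0.59. CCNE1 (-0.22), CCNE2 (-0.47), CDC6 (-0.17), CDC25A (-0.18), GINS3 (-0.18) and UNG (-0.06) did not pass. They were named because so few members missed. CCNE1 and CCNE2 encode E-type cyclins, CDC6 loads the replicative helicase, and CDC25A is a phosphatase that activates CDK2.

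All 23 measured G2/M genes fell, where 14.6% of all genes did, with a median of -0.64, beside -0.80 for E2F8. Without S22A-progerin replicate 3, the array that stood apart, 22 of these genes and 22 of the G1/S genes passed as lower. CDC25C, the phosphatase that switches on CDK1, fell by 1.05 on the log2 scale (SE 0.058, limma adjusted p = 5.09e-05). Its values were 7.16, 7.05 and 7.08 in S22A-progerin, against 8.18, 8.18 and 8.09 in wt-progerin. NEK2, a centrosomal kinase, fell by 0.91, and the mitotic kinesin genes KIF23 and KIF11 fell by 0.85 and 0.82. Of the 20 promoters of these genes that matched the RefSeq table, 12 held a CHR (60.0%) and 18 held a CCAAT box (90.0%). Among the promoters of all tested genes, 10.4% and 34.3% did. Among 26 matched promoters of the G1/S list, 10 (38.5%) held the E2F site, against 7.72% for all tested genes, and 1 held a CHR. A CCAAT box stood in 16 of the 26 (61.5%), and in 7 of 12 matched promoters of p53 targets (58.3%). That so many genes of the cell cycle fell together stands beside the lower E2F8 as a measured fact, and its part in the E2F8 difference was not tested.

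Targets of p53, of which E2F7 is one, shifted the other way. Of 14 measured, 13 rose (92.9%, against 10.8% of all genes), none fell and 1 did not pass. The median was 0.71, beside 0.24 for E2F7. TP53INP1, a p53-induced autophagy factor, read 9.86, 9.88 and 9.86 in S22A-progerin, against 8.84, 8.88 and 8.90 in wt-progerin (difference 0.99, SE 0.049). GDF15, a stress-induced cytokine, had the largest difference of the list at 3.55, PMAIP1, which encodes the pro-apoptotic NOXA, rose by 0.85, and SESN2, an inhibitor of mTORC1, by 0.79. SPATA18 (0.14) was the member that did not pass. CDKN1A and MDM2 were not analysed here. These genes are listed beside E2F7 for their known regulator, and whether p53 had a part in the E2F7 difference was not tested.

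**Figure D2:**
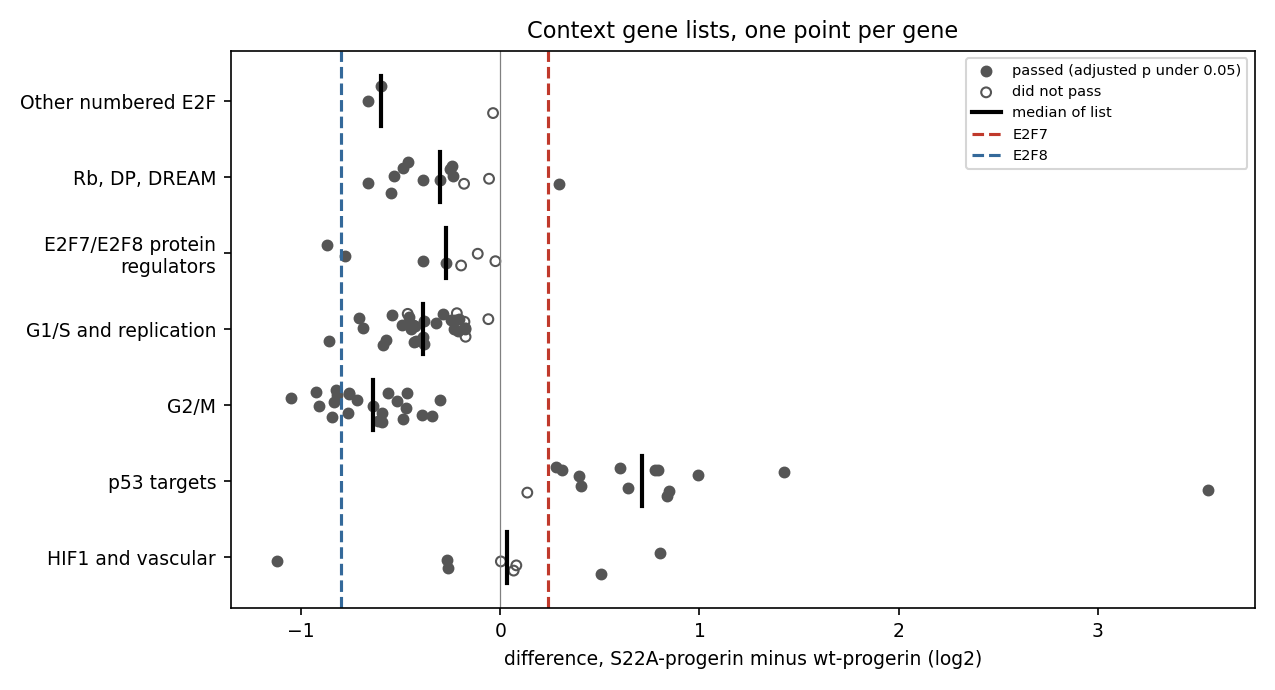
Difference between S22A-progerin and wt-progerin on the log2 scale for each measured gene of 7 groups of genes, filled where limma's adjusted p was under 0.05 and open where not, with the group median as a black bar and the E2F7 and E2F8 differences as dashed lines. Most G2/M genes (median -0.64) lie between the E2F8 line and 0, and some lie left of that line. The p53 targets (median 0.71) other than SPATA18 lie right of the E2F7 line, and the G1/S genes other than CDC7 lie between the E2F8 line and 0.

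E2F7 and E2F8 are also known, chiefly from mouse and zebrafish, to act with HIF1 on vascular genes, and those genes moved in both directions. Among 8 measured genes there were 2 rises and 3 falls (62.5% called, against 25.4% of all genes). The other 3 did not pass, and the median was 0.03. VEGFA, the angiogenic factor that E2F7 and E2F8 help HIF1 to induce, read 8.44, 8.44 and 8.43 in S22A-progerin and 8.39, 8.43 and 8.48 in wt-progerin. The groups overlapped and the 95% interval of the difference ran from -0.12 to 0.12. NRP1, a co-receptor for VEGF and semaphorins, rose by 0.80 (SE 0.055, limma adjusted p = 0.000116), with means of 10.02 in S22A-progerin and 9.21 in wt-progerin. CCBE1, a secreted factor of lymphatic vessel growth, fell by 1.12 on the log2 scale (SE 0.064, limma adjusted p = 5.78e-05). CCBE1 read 9.65, 9.51 and 9.66 in S22A-progerin, against 10.69, 10.72 and 10.78 in wt-progerin. EPAS1, which encodes HIF2 alpha, rose by 0.51, and ARNT, the shared partner of HIF alpha subunits, fell by 0.26. FLT4, the receptor of lymphatic vessels, fell by 0.27 (limma adjusted p = 0.0448), a call lost when any 1 array but wt-progerin replicate 2 was left out (adjusted p = 0.0600 to 0.141). The other VEGF receptor genes FLT1 (0.08) and KDR (0.07) did not pass.

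E2F7 and E2F8 lie on different chromosomes, 12 and 11, but in paralogous surroundings. In the order of protein-coding genes of the RefSeq table, each stands between a CSRP gene, which encodes a LIM domain protein, and a NAV gene, which encodes a neuron navigator protein. Of the 3 nearest measured protein-coding genes on each side, 5 of 12 were called (41.7%, against 25.4% of all genes). NAV3, next to E2F7, rose to 9.42, 9.35 and 9.44 in S22A-progerin, against 8.40, 8.48 and 8.49 in wt-progerin (difference 0.94, SE 0.055, limma adjusted p = 6.65e-05). NAV2, next to E2F8, did not pass (difference -0.04, SE 0.061, limma adjusted p = 0.660), with 7.60, 7.50 and 7.66 in S22A-progerin and 7.65, 7.59 and 7.65 in wt-progerin. On the other side, CSRP2 beside E2F7 fell by 0.39 (SE 0.054, limma adjusted p = 0.00219), opposite in sign to E2F7 itself.

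CSRP3 beside E2F8 fell by 0.48 (SE 0.144, limma adjusted p = 0.0487), a call that was lost when any 1 array but S22A-progerin replicate 2 was left out (adjusted p = 0.0639 to 0.139). Farther along from E2F7, OTOGL, related to the inner-ear protein otogelin, rose by 1.05 (SE 0.074), BBS10, a ciliary chaperonin gene, fell by 0.34, and OSBPL8 (0.01) and SYT1 (0.20) did not pass. Around E2F8, TMEM86A (0.24), MISFA (0.03), DBX1 (0.28) and PRMT3 (0.12) did not pass.

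**Figure D3:**
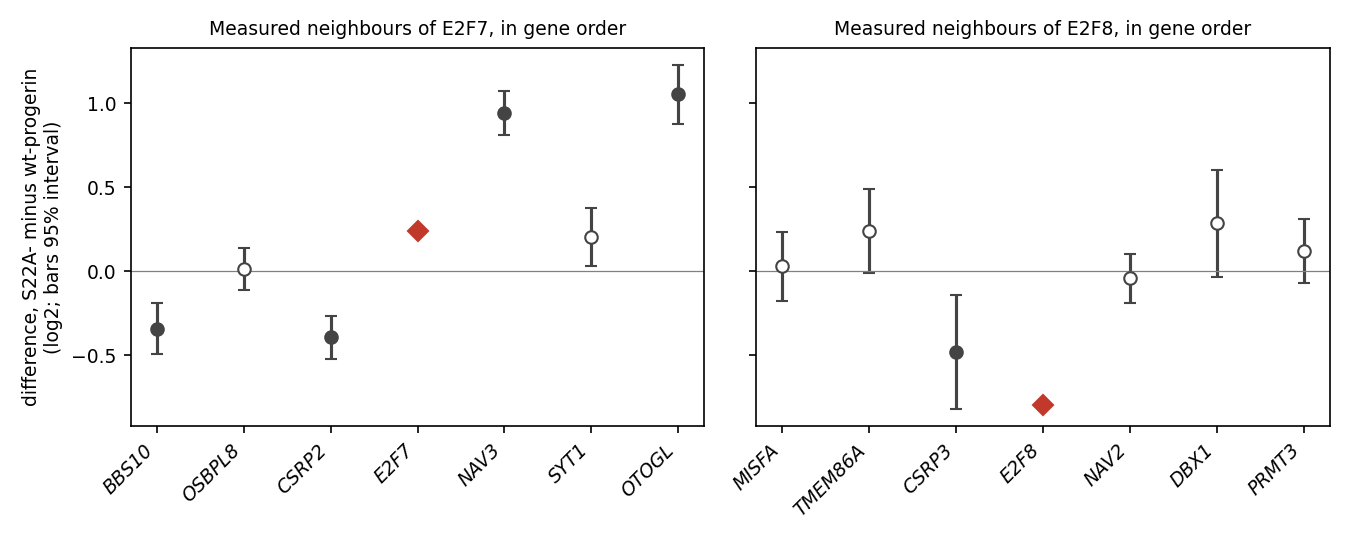
Difference between S22A-progerin and wt-progerin on the log2 scale for E2F7 (left) and E2F8 (right), shown as red diamonds, and their 3 nearest measured protein-coding genes on each side, with 95% intervals from limma, filled where the adjusted p was under 0.05. NAV3 and OTOGL lie above E2F7, and CSRP2 and BBS10 lie below 0, while CSRP3 is the 1 called neighbour of E2F8.

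The genes with profiles nearest to each repressor were found by the root mean square distance between values centred on their own mean over the 6 arrays, among 14883 other genes. Nearest to E2F7 were SRSF8, a splicing factor gene (distance 0.0141), GOSR1, a Golgi SNARE gene (0.0173), MCOLN1, which encodes a lysosomal cation channel (0.0180), RILPL1 (0.0209) and GCC2, a Golgi tether gene (0.0213). Their differences ran from 0.21 to 0.27. All 5 had their highest value in S22A-progerin replicate 3 and their lowest S22A-progerin value in replicate 2, as E2F7 did. Nearest to E2F8 were BCAM, a cell adhesion molecule gene (0.0185), NEIL3, a DNA glycosylase gene (0.0234), JADE1, a chromatin factor gene (0.0279), KIF20A, a kinesin gene of cytokinesis (0.0290) and ADAM12, a metalloprotease gene (0.0355). Their differences ran from -0.83 to -0.78, and each was highest among the S22A-progerin arrays in replicate 1 and lowest in replicate 2. SRSF8, for example, read 10.19, 10.14 and 10.27 in S22A-progerin, against 9.98, 9.96 and 9.98 in wt-progerin. BCAM read 8.24, 8.07 and 8.09 in S22A-progerin, against 8.87, 8.97 and 8.91 in wt-progerin. These genes were picked for likeness over 6 arrays in 2 groups, so that likeness is a description.

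**Figure D4:**
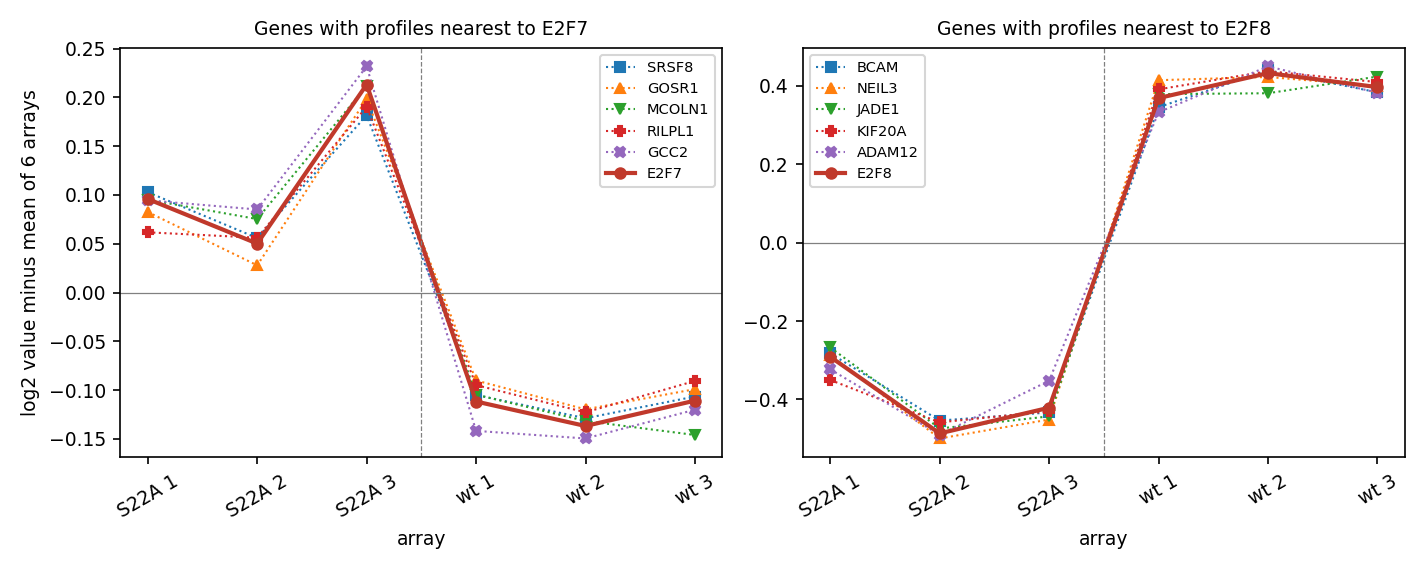
Log2 values minus each gene's mean over the 6 arrays, for E2F7 with its 5 nearest genes (left) and E2F8 with its 5 nearest genes (right), with S22A-progerin arrays left of the dashed line and wt-progerin arrays right of it. The axes differ between the panels; the E2F7 set peaks in S22A-progerin replicate 3, and the E2F8 set is lowest in S22A-progerin replicate 2.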

How the data were processed

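The deposited values are log2 expression per probe set, which the authors made with RMA, run in Affymetrix Expression Console according to the submitters' processing notes. Its version is not given in the sources used here. RMA corrects background, quantile normalizes arrays and summarises probes. Per the labels' protocols, Trizol RNA was labelled with an Ambion whole-transcript kit. No detection call was used, so low values cannot be told from absence, and the number of arrays limits the precision. Probe sets were named through the platform annotation, which gave 1 symbol to 16098 of 53617 and left 37519 unnamed here. Where a gene had several probe sets (779 of 14884 genes), the brightest was used.

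Genes were tested with limma 3.58.1 (R 4.3.3; lmFit, eBayes, 2 groups, two-sided), with Benjamini-Hochberg adjustment over all 14884 genes and calls at 0.05. The p-values set the difference between the groups against the spread of arrays within a group, moderated across genes, and measure no other spread. E2F7 and E2F8 got no test. The members, the 6 context lists (123 genes, 96 measured), the naming rule and the motifs were chosen with earlier results of these data known. The rule names all other numbered E2F genes, lists of up to 10 genes in full, otherwise the 4 members with the smallest p and any that moved against the rest, the 3 nearest measured neighbours per side and the 5 nearest profiles. Other members were named after their values were seen. Replicate numbers did not pair the arrays (correlations of same-numbered deviations -0.055 to -0.0056). On simulated arrays of 14884 genes, 6 of 50 genes changed by 0.25, 29 of 50 changed by 0.5 and 44 of 50 changed by 1 on the log2 scale were recovered, with 5 false among 134 calls. Far fewer genes differed there than in the data, where 3777 were called. The adjustment was therefore stricter in the simulation, and these shares are not the recovery in the data. Alternatives were repeated quantile normalization, median centring, averaged probe sets, the dimmer 50% of genes left out, another variance prior, the replicate block, a stricter threshold and each array left out.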

Additional observations from a re-analysis of the deposited data

How the results depend on the processing

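The E2F7 difference was 0.19 to 0.27 and the E2F8 difference -0.85 to -0.76 with each array left out in turn. The other settings gave 0.21 to 0.29 and -0.83 to -0.76. Both kept their sign throughout. Of 3777 called genes, 2078 were called at an adjusted p under 0.01. Counted anew over all genes, 2647 to 3601 were called with each array left out. With the replicate block 2990 genes were called, and 4489 with a trended, robust variance prior. The replicate number as a block ended the call of FLT4 (adjusted p = 0.0943), and gave the G1/S list 17 falls, against 25 in the main fit. That list had 17 to 22 falls with each array left out. Across the named genes and the settings tried, 748 results kept their direction and side of the threshold, 37 lost their call, 5 gained one and 0 turned round. With the dimmer 50% of genes left out ANAPC2 passed (adjusted p = 0.0375). SYT1 (adjusted p = 0.0463) and TYROBP (adjusted p = 0.0409) passed without S22A-progerin replicate 3, EPCAM (adjusted p = 0.0368) without wt-progerin replicate 3, and DBX1 (adjusted p = 0.0450) without S22A-progerin replicate 1. GOSR1, RILPL1, SRSF8, MCOLN1 and GCC2 were called higher in the main fit and were among the genes that lost a call. These genes were picked for likeness to E2F7, so their calls are no test of E2F7.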
